A study of Homo sapiens with 12 samples.

Results

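The genes described here are 41 members of the NF-kB pathway, its well-known target genes and the chemokines and cytokines that NF-kB is known to drive. They were taken by gene symbol from the deposited count table, which lists 20289 genes. All 41 symbols were found, each once. By role they comprise 5 NF-kB subunits, 8 IkB inhibitors and feedback proteins, 4 receptor adaptors and ubiquitin ligases, 5 target genes whose products act in or on the cell, 10 chemokines and 9 cytokines. Of the 41, 34 had enough counts to be tested and 7 did not (CXCL1, CXCL2, CCL5, CCL20, IL11, IL1B and TNF).

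NF-kB proteins are transcription factors that bind DNA as dimers and are held in the cytoplasm by IkB inhibitors until a receptor signal leads to destruction of the inhibitor. In the canonical branch RELA and NFKB1 act downstream of TNF, interleukin 1 and Toll-like receptors. In the noncanonical branch the kinase encoded by MAP3K14 drives processing of the NFKB2 precursor, whose partner is RELB, and the ubiquitin ligases encoded by BIRC2 and BIRC3 restrain that kinase. Many target genes encode inhibitors of the pathway itself, and in glioblastoma the pathway is known for its link to the mesenchymal state and to secreted cytokines.

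The study sequenced poly(A) RNA from U251 cells, a long-established line grown from a human glioblastoma, in 12 libraries. Cells carried a lentiviral control hairpin or a lentiviral short hairpin RNA against CD44, a membrane protein that binds hyaluronan, and were given the solvent DMSO or 50 µM temozolomide, a DNA alkylating drug used against glioblastoma, for 24 h. There were 3 libraries in each of 4 groups, named here for hairpin and treatment: control DMSO, control temozolomide, knockdown DMSO and knockdown temozolomide. All groups share the cell line and a hairpin virus. The drug-treated controls are labelled NC, the code that the DMSO controls also carry, and were read as control hairpin. The labels name 1 hairpin against CD44, do not say whether cells were a pool or a clone, and do not say that the 3 libraries of a group were separate cultures, so a p-value speaks of the spread among these libraries alone. Totals ran from 13.5 to 24.8 (in units of 1e6 estimated counts) per library, and 3 counts corresponded to 0.120 to 0.215 CPM (counts per 1e6 counts of the scaled library).

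The labelled cell type was compared with marker genes. VIM, SOX2, PDGFRA and EGFR were abundant, and the 8 glioma and astrocyte markers summed to 4311 to 4502 CPM in control and 4657 to 4730 CPM in knockdown cells under DMSO. With temozolomide the sums were lower, at 3284 to 3435 and 3718 to 3911 CPM. With knockdown 3 of the 7 tested markers were called higher and 2 lower in each treatment, beside about 1 in 5 of all tested genes in each direction. With the drug 5 of the 7 were called lower in each kind of cell, beside 15.8% of all tested genes in control and 13.2% in knockdown cells. These falls move with those of members described further on, and their part in them was not tested. Most of each of these sums was VIM, at 3300 to 3486 CPM in control DMSO and 2442 to 2620 CPM in control temozolomide. The defining astrocyte markers were nearly absent in all 12 libraries: GFAP lay between 0.242 and 1.80 CPM and S100B between 0.0605 and 0.479 CPM. Among 8 myeloid markers AIF1 was at 0 in every library and the summed level, 15.7 to 17.6 CPM in control DMSO and 23.2 to 26.5 CPM in knockdown DMSO, was nearly all CD68, a lysosomal protein. With temozolomide the sum was 14.0 to 16.6 CPM in control and 24.6 to 27.4 CPM in knockdown cells, and its part in the results below was not tested. Of 6 lymphoid markers 5 were at 0 throughout, and the summed level did not pass 0.0663 CPM. The 4 endothelial markers summed to 41.8 to 47.2 CPM in control and 28.5 to 29.4 CPM in knockdown cells under DMSO, and to 19.7 to 23.7 and 13.5 to 14.6 CPM with temozolomide. Nearly all of that sum was CDH5, while VWF, PECAM1 and CLDN5 stayed below 1 CPM in every library.

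NF-kB dimers bind a short DNA element called the kappa-B site, and stretches of promoter are shown for some of the members that hold such letters. Among those shown CXCL1 was not tested and NFKBIA was not called in any comparison. RefSeq promoter windows (GRCh38.p14, 250 bases before to 50 bases after the start) were matched for 32 of the 41 members, with 48 windows in all. There was no entry for RELB, NFKBIE, IER3, CCL2, CCL5, CX3CL1, IL15, LIF and CSF1. Each line below gives 60 bases of the strand of the gene from 5′ to 3′, with matches to the kappa-B consensus or to GGAATTTCC on either strand in capitals.
NFKB2 (chr10:102394446-102394505, plus strand): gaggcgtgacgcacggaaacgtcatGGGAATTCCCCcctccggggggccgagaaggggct
NFKBIA (chr14:35404796-35404855, minus strand): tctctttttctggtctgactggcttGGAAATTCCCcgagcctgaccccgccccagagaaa
TNFAIP3 (chr6:137867167-137867226, plus strand): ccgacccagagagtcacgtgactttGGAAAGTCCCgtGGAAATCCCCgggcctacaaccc
BIRC3 (chr11:102317260-102317319, plus strand): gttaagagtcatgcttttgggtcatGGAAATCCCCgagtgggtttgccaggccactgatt
CXCL1 (chr4:73869289-73869348, plus strand): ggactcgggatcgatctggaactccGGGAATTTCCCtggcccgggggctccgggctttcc
CXCL3 (chr4:74038734-74038793, minus strand): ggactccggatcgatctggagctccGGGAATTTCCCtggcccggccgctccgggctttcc
CXCL8 (chr4:73740452-73740511, plus strand): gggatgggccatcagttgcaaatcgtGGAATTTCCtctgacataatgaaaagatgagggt
CXCL10 (chr4:76023640-76023699, minus strand): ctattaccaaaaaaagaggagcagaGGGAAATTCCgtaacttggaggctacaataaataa
IL32 (chr16:3065279-3065338, plus strand): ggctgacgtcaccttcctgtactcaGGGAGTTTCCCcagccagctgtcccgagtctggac
The capitals begin at base -107 before the start in NFKB2, -81 in NFKBIA, -67 in TNFAIP3, -199 in BIRC3, -79 in CXCL1 and in CXCL3, -91 in CXCL8, -177 in CXCL10 and -99 in IL32. The kappa-B consensus was found in 21 of the 48 member windows (43.8%) and in 11.3% of all 35116 windows of the same length, and 19 of the 32 matched members had at least 1. The letters GGAATTTCC, which overlap the consensus, were in 12 member windows (25%) and in 0.461% of all windows. The 13 matched members without the consensus were RELA, TNIP2, TRAF1, TRAF2, BIRC2, SOD2, TNFAIP2, ICAM1, CXCL8, IL11, IL1A, IL1B and TNF. CXCL8 and ICAM1 held GGAATTTCC instead. These matches describe letters and not binding, and the 60 bases of CXCL1 and CXCL3 are nearly the same.

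In control DMSO the members covered a wide range of levels. On the FPKM scale, which divides by transcript length and so allows genes to be compared, TNFAIP2 stood first at 155.3 ± 2.87 FPKM (SD, n = 3), followed by SOD2 at 70.1 ± 3.43, RELA at 33.6 ± 1.58, TNIP1 at 24.9 ± 1.01, CCL2 at 20.5 ± 2.10 and BIRC2 at 18.0 ± 0.221 FPKM. None of these neighbours overlapped in its library values. TNIP2, CD83 and NFKBIA followed at 15.5 to 15.9 FPKM and overlapped each other. RELB was at 2.02 ± 0.301 FPKM, TRAF1 at 0.230 ± 0.0985 FPKM and IL1A at 0.130 ± 0.0700 FPKM. From IL6 at 0.480 FPKM down to TNF at 0.0233 FPKM each gene overlapped the next, and CXCL1 was listed at 0.

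The hairpin target was checked first. CD44 (chr11:35138870-35232402, plus strand, GRCh38) was at 1127, 1102 and 1043 CPM in control DMSO and at 421, 419 and 419 CPM in knockdown DMSO. With temozolomide it was at 851, 808 and 804 CPM in control cells and at 320, 326 and 333 CPM in knockdown cells. The log2 fold change of knockdown was -1.38 (SE 0.03, adjusted p = 3.2e-17, edgeR quasi-likelihood with Benjamini-Hochberg adjustment, as for every adjusted p below) under DMSO and -1.33 (SE 0.03, adjusted p = 1.2e-16) under temozolomide. Every library stood on the side its label gives.

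With CD44 knocked down, most of the members that could be tested had more RNA. Under DMSO 22 of the 41 members were higher and 2 were lower at an adjusted p below 0.05, where 21.1% of all 12821 tested genes were higher and 21.4% lower. Under temozolomide 21 members were higher and 1 was lower, against 22.0% of all tested genes higher and 20.3% lower. The median log2 fold change of the 34 tested members was 0.66 under DMSO and 0.40 under temozolomide, beside -0.00 and 0.01 over all tested genes. The filter on low counts keeps a weakly expressed gene more readily where some group is high, so neither the medians nor the counts over tested members cover the 7 untested ones. These 2 comparisons share no library, and 18 members were higher in both, which is 81.8% of the 22 and 85.7% of the 21. Over all tested genes the genes higher in both made up 70.7% and 67.9%. The sign was the same in both for 34 of 34 tested members and for 77.1% of all tested genes. Called higher under DMSO alone were NFKBIZ, CXCL3, CXCL11 and IL6, and under temozolomide alone RELA, NFKBIB and NFKBIE. None of these 7 was called in the test of the difference between the treatments given further on. Without knockdown temozolomide replicate 1, in which many members stood highest of their group, the counts under temozolomide were 17 higher and 2 lower. Without control temozolomide replicate 3 they were 16 higher and 1 lower. In bulk RNA a change in every cell and a change in a share of the cells cannot be told apart.

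**Figure D1:**
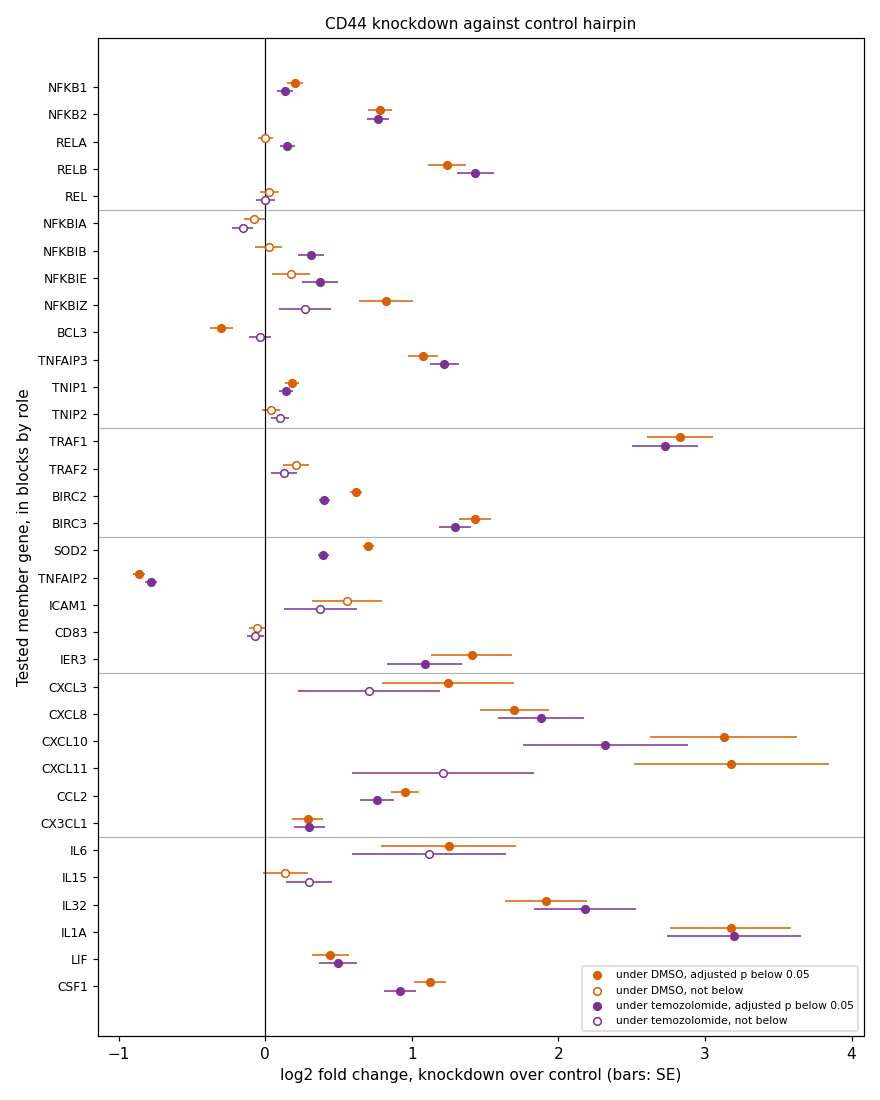
Log2 fold change of CD44 knockdown against control hairpin for the 34 tested members, under DMSO and under temozolomide, with bars of 1 standard error and filled points for members called at an adjusted p below 0.05. Among members called in both treatments TRAF1, CXCL10 and IL1A lie farthest to the right, and TNFAIP2 is the member called to the left in both.

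Among the subunits, NFKB2 and RELB of the noncanonical branch rose most. NFKB2 (chr10:102394110-102402529, plus strand), whose promoter element is printed above, was at 28.4, 30.9 and 28.4 CPM in control DMSO and at 46.7, 50.7 and 53.0 CPM in knockdown DMSO. After temozolomide it stood at 33.0, 29.2 and 32.5 CPM in control and at 62.2, 51.9 and 47.7 CPM in knockdown cells. All 6 knockdown libraries were above all 6 control libraries. The log2 fold change was 0.78 (SE 0.08, adjusted p = 1.2e-07) under DMSO and 0.77 (SE 0.08, adjusted p = 8.0e-08) under temozolomide.

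RELB (chr19:45001430-45038198, plus strand), the dimer partner of the processed NFKB2 product, was at 4.74, 4.11 and 4.52 CPM in control DMSO and at 11.0, 10.6 and 10.2 CPM in knockdown DMSO. With temozolomide the values were 3.89, 3.63 and 3.92 CPM against 12.2, 9.46 and 9.33 CPM. The knockdown libraries again lay wholly above the controls, by 2.37-fold under DMSO (log2 1.24, SE 0.13, adjusted p = 1.1e-07) and 2.70-fold under temozolomide (log2 1.43, SE 0.13, adjusted p = 1.3e-08). The canonical subunits had smaller values. NFKB1 rose by 0.20 on the log2 scale (SE 0.05, adjusted p = 0.0038) under DMSO and 0.14 (SE 0.05, adjusted p = 0.043) under temozolomide, and the second of these calls was lost with several libraries left out in turn (lowest log2 value 0.10, adjusted p = 0.18, without knockdown temozolomide replicate 3) and in DESeq2 (0.13, adjusted p = 0.16). RELA, the main activating subunit, stood at 0.00 on the log2 scale (SE 0.05) with DMSO in the counts, but in FPKM it was at 31.9 to 34.9 in control and 38.0 to 42.5 in knockdown libraries and was called higher by 0.24 (limma on log2(FPKM + 1), adjusted p = 0.027). In the counts it was higher under temozolomide by 0.15 (SE 0.05, adjusted p = 0.024). Its groups overlapped there, at 69.5 to 80.1 CPM in control and 77.4 to 85.1 CPM in knockdown cells. Without control temozolomide replicate 3 the RELA value fell to 0.11 (adjusted p = 0.13), and the call was also lost without control temozolomide replicate 2 or without replicate 1 or 2 of knockdown temozolomide. REL, a subunit best known from lymphoid cells, was at 52.2 to 65.5 CPM over all 12 libraries and was not called in any comparison.

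**Figure D2:**
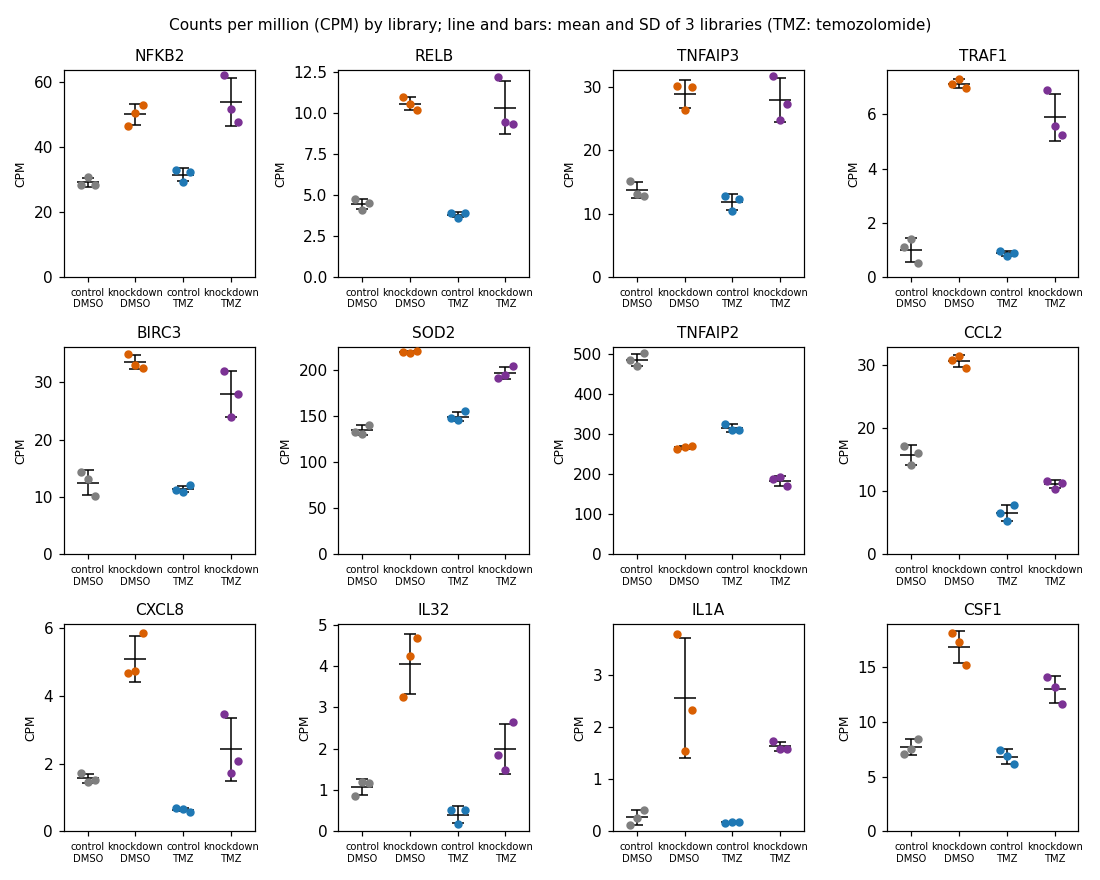
CPM of 12 members in each of the 12 libraries, with 1 point per library, the group mean as a dash with a bar of 1 SD (n = 3), and the 4 groups side by side; each panel has its own axis from 0. In the RELB, NFKB2, TNFAIP3, TRAF1 and BIRC3 panels both knockdown groups sit above both control groups, while TNFAIP2 has the opposite order.

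Of the 8 inhibitors and feedback proteins, 3 were higher and 1 was lower under DMSO, and 4 were higher under temozolomide. Among all tested genes 21.1% were higher and 21.4% lower under DMSO, and 22.0% and 20.3% under temozolomide. The largest rise was in TNFAIP3, a ubiquitin-editing enzyme that switches off TNF receptor signalling. It was at 15.1, 13.1 and 12.8 CPM in control DMSO, 30.2, 26.4 and 30.0 CPM in knockdown DMSO, 12.9, 10.4 and 12.3 CPM in control temozolomide and 31.7, 24.8 and 27.3 CPM in knockdown temozolomide. No knockdown library reached down to a control library. The log2 fold change was 1.08 (SE 0.10, adjusted p = 2.4e-08) under DMSO and 1.22 (SE 0.10, adjusted p = 3.5e-09) under temozolomide.

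TNIP1, which binds the TNFAIP3 protein and helps it to restrain the pathway, rose less, by log2 fold changes of 0.18 (adjusted p = 0.0046) and 0.14 (adjusted p = 0.022), and the second call was lost without control temozolomide replicate 3 or without replicate 1 or 2 of knockdown temozolomide (0.11 to 0.13, adjusted p = 0.08 to 0.12). NFKBIZ, a nuclear IkB protein that acts as a coactivator, was at 2.29 to 3.58 CPM in control DMSO and 4.52 to 5.59 CPM in knockdown DMSO (log2 0.82, SE 0.18, adjusted p = 0.0010). With temozolomide its log2 fold change was 0.27 (SE 0.18, adjusted p = 0.23). NFKBIB was higher under temozolomide by 0.31 (SE 0.09, adjusted p = 0.0083), with 9.37 to 10.6 CPM in control and 11.8 to 13.4 CPM in knockdown cells. NFKBIE, also a cytoplasmic inhibitor, was higher by 0.37 (SE 0.12, adjusted p = 0.020), a call lost without control temozolomide replicate 3 (0.30, adjusted p = 0.090) or knockdown temozolomide replicate 3 (0.31, adjusted p = 0.075).

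The inhibitor best known as a rapid readout of the canonical branch, NFKBIA, did not follow. It was at 25.7, 23.8 and 25.8 CPM in control DMSO and 24.4, 24.8 and 22.5 CPM in knockdown DMSO, and at 25.3, 24.7 and 24.8 CPM and 24.2, 21.0 and 22.2 CPM with temozolomide. Its log2 fold changes were -0.07 (SE 0.07, adjusted p = 0.42) and -0.15 (SE 0.07, adjusted p = 0.082), and the second was called, at -0.21 (adjusted p = 0.031), without knockdown temozolomide replicate 1. BCL3, a nuclear cofactor of NFKB1 and NFKB2 homodimers, fell by 0.30 on the log2 scale (SE 0.08, adjusted p = 0.0035) under DMSO, from 19.0 to 21.3 CPM in control libraries to 15.9 to 17.6 CPM in knockdown libraries. With a correction for GC content that value was -0.13 (adjusted p = 0.20). Under temozolomide the BCL3 log2 fold change was -0.03 (SE 0.07). TNIP2, a further partner of TNFAIP3, was not called in any comparison, and with the GC correction its value under DMSO was called at 0.16 (adjusted p = 0.033).

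Among adaptors and ubiquitin ligases 3 of 4 rose in both treatments, beside 21.1% of all tested genes under DMSO and 22.0% under temozolomide. TRAF1 (chr9:120902393-120929173, minus strand), an adaptor of TNF receptor family members and a known NF-kB target, was at 1.12, 1.39 and 0.529 CPM in control DMSO and at 7.12, 7.31 and 6.96 CPM in knockdown DMSO. With temozolomide it was at 0.962, 0.786 and 0.878 CPM in control cells and 6.89, 5.59 and 5.24 CPM in knockdown cells. Controls stayed below 1.5 CPM and knockdown libraries above 5 CPM. Knockdown raised it 7.11-fold under DMSO (log2 2.83, SE 0.22, adjusted p = 2.2e-09) and 6.63-fold under temozolomide (log2 2.73, SE 0.22, adjusted p = 3.5e-09).

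BIRC3 and BIRC2 are neighbours on chromosome 11 (BIRC3 at chr11:102317450-102339403 and BIRC2 at chr11:102347211-102378670, both on the plus strand), and both encode ligases that place ubiquitin on signalling proteins at TNF receptors. BIRC3 was at 14.3, 13.1 and 10.1 CPM in control DMSO and 35.0, 33.0 and 32.6 CPM in knockdown DMSO, and at 11.2, 10.9 and 12 CPM and 32.0, 24.0 and 28.0 CPM with temozolomide. Its log2 fold change was 1.43 (SE 0.11, adjusted p = 1.0e-09) under DMSO and 1.29 (SE 0.11, adjusted p = 4.7e-09) under temozolomide. BIRC2 was more abundant and rose less, from 64.4 to 68.0 CPM up to 100.3 to 103 CPM under DMSO (log2 0.62, SE 0.04, adjusted p = 7.0e-11) and from 77.8 to 81.0 CPM up to 103 to 107 CPM under temozolomide (log2 0.40, SE 0.04, adjusted p = 2.2e-08). TRAF2, the adaptor that recruits these ligases, had log2 fold changes of 0.21 (SE 0.09, adjusted p = 0.062) and 0.13 (SE 0.09, adjusted p = 0.27), and the first was called with the GC correction (0.32, adjusted p = 0.0044).

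The 5 target genes that act in or on the cell did not move together. SOD2 (chr6:159669057-159745186, minus strand), the mitochondrial superoxide dismutase, was at 133, 130 and 141 CPM in control DMSO and 219, 218 and 220 CPM in knockdown DMSO. Under the drug it was at 147, 145 and 155 CPM in control and 191, 194 and 204 CPM in knockdown cells. Knockdown raised it by 0.70 on the log2 scale (SE 0.04, adjusted p = 7.7e-12) under DMSO and 0.40 (SE 0.04, adjusted p = 4.0e-08) under temozolomide. IER3, an early response gene linked to cell survival, rose by 1.41 (SE 0.27, adjusted p = 0.00029) and 1.09 (SE 0.26, adjusted p = 0.0018) from control levels of 0.730 to 1.93 CPM.

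TNFAIP2 (chr14:103123442-103137439, plus strand), a TNF-induced gene whose product takes part in the formation of membrane nanotubes, went the other way. It was at 484, 470 and 501 CPM in control DMSO, 263, 269 and 270 CPM in knockdown DMSO, 325, 311 and 309 CPM in control temozolomide and 187, 193 and 170 CPM in knockdown temozolomide. None of the 4 groups overlapped. Knockdown lowered it by 0.86 on the log2 scale (log2 -0.86, SE 0.04, adjusted p = 5.9e-13) under DMSO and 0.78 (log2 -0.78, SE 0.04, adjusted p = 4.1e-12) under temozolomide, so the most abundant member in control DMSO was also the only member lower in both treatments. ICAM1, an adhesion receptor for leukocytes, was at 1.97 to 2.39 CPM in control DMSO and 2.75 to 3.46 CPM in knockdown DMSO, with a log2 fold change of 0.56 (SE 0.24, adjusted p = 0.068). That value was called when only the libraries of the DMSO groups were fitted (0.55, adjusted p = 0.037). CD83, a surface protein known from dendritic cells, lay between 32.3 and 38.5 CPM in all 12 libraries and was not called in any comparison.

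Chemokines, which attract leukocytes, were weakly expressed apart from CCL2 and CX3CL1. Of the 10, 6 were higher under DMSO, beside 21.1% of all tested genes, and the other 4 did not pass the filter on low counts. CXCL10 and CXCL11 had at most 3 counts in each control DMSO library, and CXCL3 was low there too. These genes passed the filter through other libraries, with higher values in knockdown DMSO, so this tally is partly set by the filter. CXCL8 (chr4:73740506-73743716, plus strand), which attracts neutrophils, was at 1.71, 1.46 and 1.53 CPM in control DMSO and 4.66, 4.73 and 5.85 CPM in knockdown DMSO. With temozolomide it was at 0.682, 0.665 and 0.585 CPM in control and 3.47, 1.72 and 2.08 CPM in knockdown cells, so the first of the 3 treated knockdown libraries stood above the other two. The log2 fold change of knockdown was 1.70 (SE 0.24, adjusted p = 6.4e-06) under DMSO and 1.88 (SE 0.29, adjusted p = 2.3e-05) under temozolomide, and 1.52 (adjusted p = 0.00027) without that library. CCL2, which attracts monocytes, was at 17.2, 14.1 and 16.0 CPM in control DMSO and 30.8, 31.4 and 29.5 CPM in knockdown DMSO. In drug-treated cells it was at 6.57, 5.20 and 7.73 CPM and 11.7, 10.4 and 11.3 CPM. Its knockdown values were 0.95 (SE 0.10, adjusted p = 7.2e-08) and 0.76 (SE 0.12, adjusted p = 2.2e-05) on the log2 scale.

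CXCL10, an interferon-inducible attractant of T cells, was at 0.197, 0.133 and 0.0587 CPM in control DMSO (3, 2 and 1 counts) and 1.46, 1.11 and 0.966 CPM (22, 18 and 19 counts) in knockdown DMSO. With temozolomide it was at 2, 1 and 3 counts in control and 9, 12 and 7 counts in knockdown cells. The log2 fold change was 3.13 (SE 0.50, adjusted p = 3.3e-05) under DMSO and 2.32 (SE 0.56, adjusted p = 0.0022) under temozolomide. CXCL11, which shares its receptor with CXCL10, had counts of 0, 2 and 2 in control DMSO against 13, 12 and 17 in knockdown DMSO (log2 3.18, SE 0.67, adjusted p = 0.00058). With temozolomide its groups overlapped, at 0.0802 to 0.363 CPM and 0.287 to 0.599 CPM (log2 1.21, SE 0.62, adjusted p = 0.13), and that value was 2.02 (adjusted p = 0.040) without control temozolomide replicate 2. Fold changes that rest on a few counts in the control libraries depend on how the model treats low counts.

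CXCL3, a neutrophil attractant, was at 0.461, 0.265 and 0.411 CPM in control DMSO and 1.07, 1.17 and 0.559 CPM in knockdown DMSO (log2 1.25, SE 0.45, adjusted p = 0.030). This call was lost without control DMSO replicate 2 or 3 and without knockdown DMSO replicate 1 or 2, with log2 values of 1.04 to 1.31 and adjusted p of 0.066 to 0.12. CX3CL1, a membrane-bound chemokine, was higher by 0.29 (SE 0.10, adjusted p = 0.028) under DMSO and 0.30 (SE 0.11, adjusted p = 0.029) under temozolomide. The DMSO value dropped to 0.17 (adjusted p = 0.20) without knockdown DMSO replicate 2 and to 0.23 (adjusted p = 0.11) without control DMSO replicate 2. The value under temozolomide was 0.25 to 0.31 (adjusted p = 0.053 to 0.11) without control temozolomide replicate 2 or 3 or without knockdown temozolomide replicate 1.

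The other 4 chemokines were too low to test. CXCL1 had no count in any of the 12 libraries, which allows up to 0.120 to 0.215 CPM per library. CXCL1, CXCL2 and CXCL3 are close copies of each other, as the printed promoter stretches of CXCL1 and CXCL3 also show, and reads shared between them could have been divided unevenly, so their values are uncertain. CXCL2 had 1 to 9 counts per library and CCL20 0 to 5. CCL5, an attractant of T cells, had estimated counts of 0, 1.01 and 3.03 in control DMSO against 10.02, 8.01 and 6.89 in knockdown DMSO. With temozolomide it had 9, 2 and 2 counts in control and 20.13, 11 and 5.24 in knockdown cells.

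Of the 9 cytokines 5 were higher under DMSO and 4 under temozolomide, and none was lower. Among all tested genes 21.1% and 22.0% were higher, and 21.4% and 20.3% lower. The filter on low counts removed 3 of the 9. IL1A and IL6 were low in each control DMSO library and passed the filter through other libraries. This tally is thus partly set by the filter. IL1A, an alarm cytokine that itself activates NF-kB, was at 0.132, 0.265 and 0.411 CPM (2, 4 and 7 counts) in control DMSO and 3.79, 1.54 and 2.34 CPM (57, 25 and 46 counts) in knockdown DMSO. After temozolomide it stood at 0.160, 0.181 and 0.176 CPM in control and 1.74, 1.58 and 1.58 CPM in knockdown cells. The groups lay far apart, with log2 fold changes of 3.18 (SE 0.41, adjusted p = 2.5e-06) and 3.20 (SE 0.46, adjusted p = 8.4e-06). IL32, a cytokine that has no mouse counterpart and can induce TNF and IL6 in other cells, was at 0.855, 1.19 and 1.17 CPM in control DMSO and 3.26, 4.24 and 4.68 CPM in knockdown DMSO. With temozolomide it was at 0.521, 0.181 and 0.527 CPM and 1.86, 1.48 and 2.66 CPM. Its log2 fold change was 1.92 (SE 0.28, adjusted p = 1.1e-05) under DMSO and 2.18 (SE 0.35, adjusted p = 3.2e-05) under temozolomide.

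CSF1, the growth factor of macrophages, was at 7.04, 7.50 and 8.46 CPM in control DMSO, 18.0, 17.2 and 15.2 CPM in knockdown DMSO, 7.46, 6.83 and 6.15 CPM in control temozolomide and 14.1, 13.1 and 11.6 CPM in knockdown temozolomide. Both knockdown groups were above both control groups, by 1.12 (SE 0.11, adjusted p = 4.4e-08) and 0.92 (SE 0.11, adjusted p = 9.3e-07) on the log2 scale. LIF, a cytokine of the IL6 family, was higher by 0.44 (SE 0.13, adjusted p = 0.0073) and 0.50 (SE 0.13, adjusted p = 0.0042). In FPKM, where LIF varied from 1.95 to 3.74 among the control DMSO libraries, neither LIF value was called (limma, 0.65 with adjusted p = 0.064 and 0.40 with adjusted p = 0.24 on log2(FPKM + 1)).

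IL6 was at 0.395, 0.199 and 0.587 CPM in control DMSO and 1.26, 0.676 and 0.966 CPM in knockdown DMSO, with a log2 fold change of 1.25 (SE 0.46, adjusted p = 0.033). That call was lost without control DMSO replicate 1 or 2 or knockdown DMSO replicate 1 or 3 (0.95 to 1.25, adjusted p = 0.075 to 0.14). Under temozolomide the IL6 value was 1.12 (SE 0.53, adjusted p = 0.094). IL15, a growth factor of natural killer cells, lay between 3.15 and 5.78 CPM in all libraries and was not called in any comparison. Untested were TNF, the classical activator of the pathway, with counts of 0, 1 and 1 in control DMSO against 4, 4 and 5 in knockdown DMSO, IL1B with 0 to 5 counts per library, and IL11 with 0 to 6 counts in 3 groups and 7, 19 and 3 in knockdown temozolomide. With temozolomide the TNF counts were 3, 1 and 0 in control and 1, 4 and 2 in knockdown cells.

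**Figure D3:**
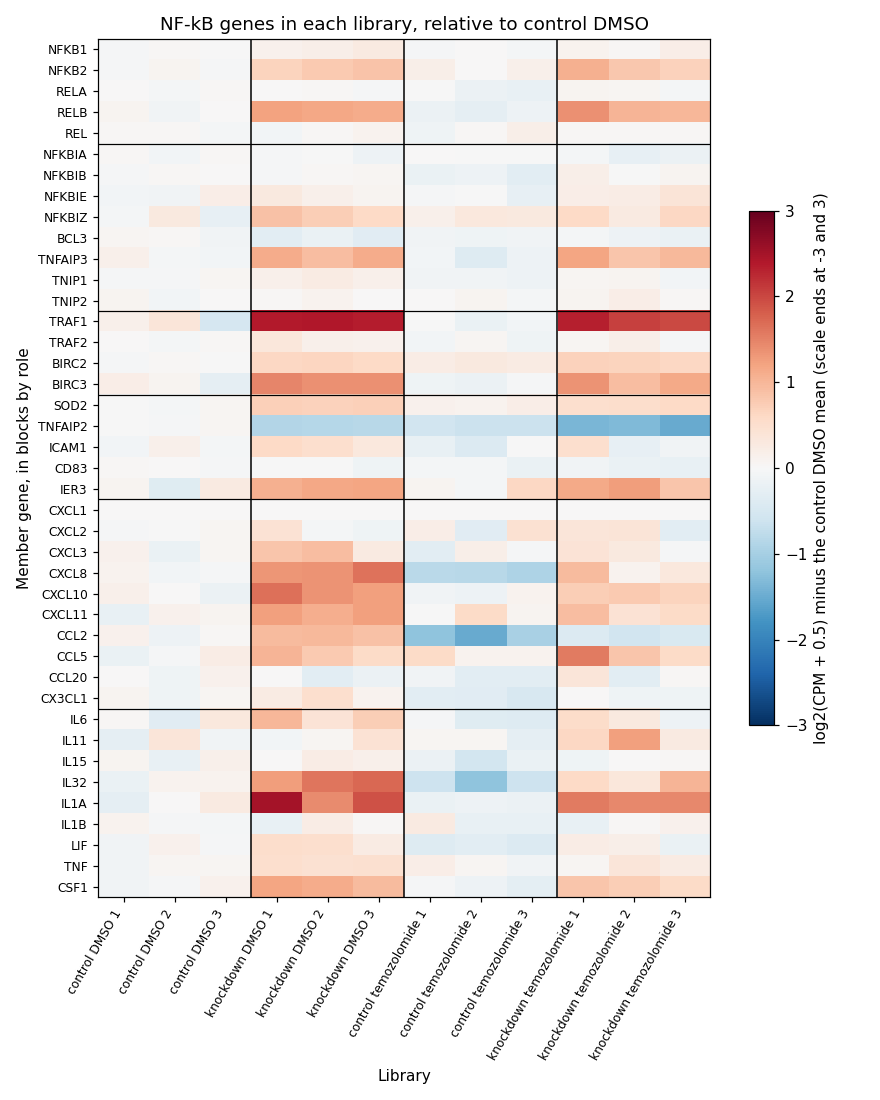
Heat map of the members (rows, by role) in the 12 libraries (columns, by group), coloured by log2(CPM + 0.5) minus the control DMSO mean of that gene. The knockdown columns are mostly above 0 for TRAF1, BIRC3, RELB, TNFAIP3, CXCL8, CXCL10, IL32, IL1A and CSF1, and below 0 for TNFAIP2 and, with temozolomide, for CCL2.

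With temozolomide fewer members were called than with knockdown. In control cells 2 of the 41 members were higher and 6 were lower, where 11.7% of all tested genes were higher and 15.8% lower. In knockdown cells 0 were higher and 9 were lower, against 9.05% and 13.2% of all tested genes. No member reached an unadjusted p below 0.05 upward in knockdown cells with edgeR, DESeq2 called 0 there too, and limma on log2(FPKM + 1) called 1, BIRC2. The median log2 change of the tested members was -0.15 in control and -0.17 in knockdown cells, beside -0.00 and 0.00 over all tested genes. These 2 comparisons share no library. TNFAIP2, CXCL8, CCL2, CX3CL1 and IL32 fell in both, which is 83.3% of the 6 and 55.6% of the 9. Over all tested genes the genes lower in both made up 54.3% and 64.9%. The sign was the same in both for 26 of 34 tested members and for 68.5% of all tested genes.

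**Figure D4:**
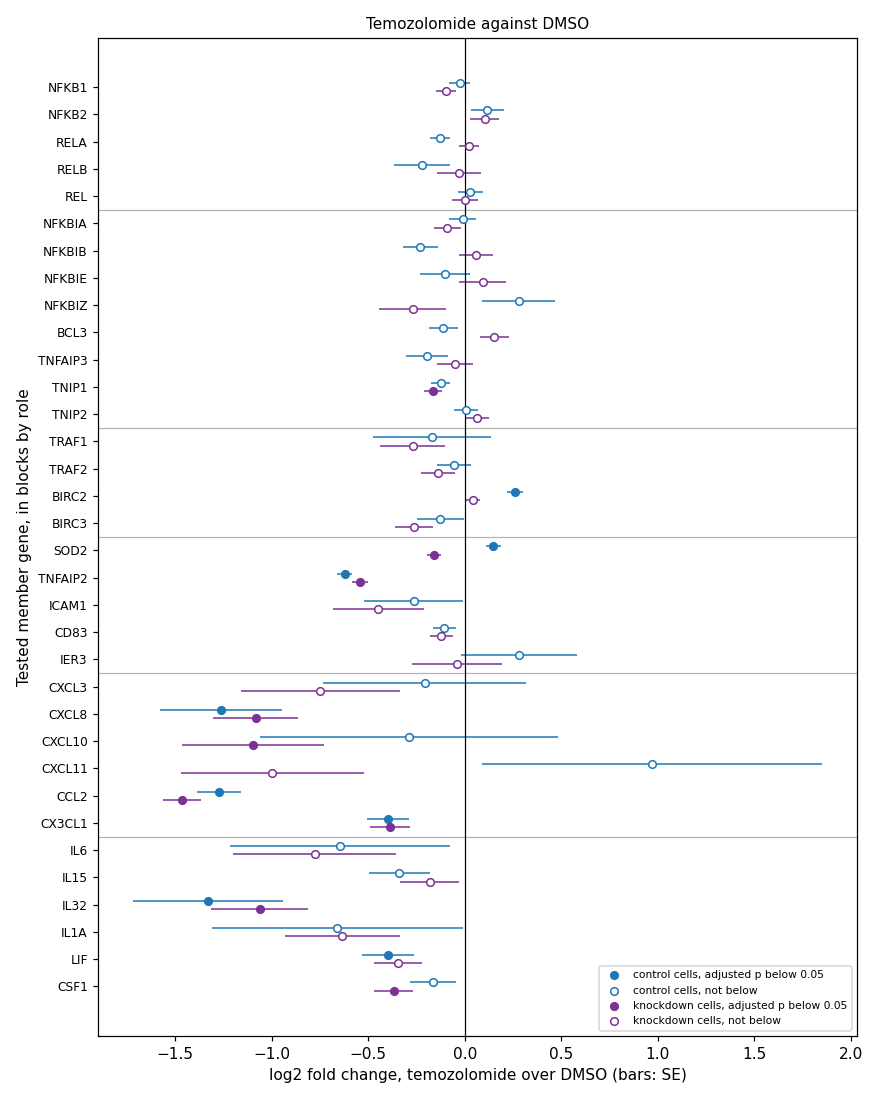
Log2 fold change of temozolomide against DMSO for the 34 tested members, in control and in knockdown cells, with bars of 1 standard error and filled points for members called at an adjusted p below 0.05. CXCL8, CCL2, IL32 and TNFAIP2 are called to the left of 0 in both kinds of cell, while SOD2 is called on opposite sides.

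CCL2 fell by 1.27 on the log2 scale in control cells (log2 -1.27, SE 0.11, adjusted p = 5.5e-08) and by 1.46 in knockdown cells (log2 -1.46, SE 0.10, adjusted p = 9.1e-10). Its 3 control temozolomide values, 5.20 to 7.73 CPM, were the lowest of the 4 groups, and the treated knockdown libraries at 10.4 to 11.7 CPM remained below untreated control cells. CXCL8 fell by 1.26 (log2 -1.26, SE 0.32, adjusted p = 0.0049) and 1.08 (log2 -1.08, SE 0.22, adjusted p = 0.0012). IL32 fell by 1.33 (log2 -1.33, SE 0.39, adjusted p = 0.014) in control cells, and without control temozolomide replicate 2, the library with the lowest IL32, by 1.03 (adjusted p = 0.068). In knockdown cells it fell by 1.06 (log2 -1.06, SE 0.25, adjusted p = 0.0043). TNFAIP2 fell by 0.62 (SE 0.04, adjusted p = 5.1e-10) and 0.54 (SE 0.04, adjusted p = 5.5e-09), and CX3CL1 by 0.40 (SE 0.11, adjusted p = 0.0087) and 0.38 (SE 0.10, adjusted p = 0.010). The second CX3CL1 call was lost without knockdown DMSO replicate 2 (-0.27, adjusted p = 0.078). On log2(FPKM + 1) neither CX3CL1 call was made (limma, -0.26 and -0.26, adjusted p = 0.060 and 0.067), nor that of IL32 in control cells (-0.54, adjusted p = 0.052).

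None of the 5 subunits was called for temozolomide in either kind of cell, and their log2 changes lay between -0.22 and 0.12. Among all tested genes 11.7% were higher and 15.8% lower in control cells, and 9.05% and 13.2% in knockdown cells. RELA in control cells, at -0.13 (SE 0.05, adjusted p = 0.074), was called without control temozolomide replicate 1 (-0.20, adjusted p = 0.0079) and with the replicate block (-0.13, adjusted p = 0.048). The inhibitor gene NFKBIB, at -0.23 (adjusted p = 0.068), was called on log2(FPKM + 1) (limma, -0.27, adjusted p = 0.025). BIRC2 rose in control cells by a log2 fold change of 0.26 (SE 0.04, adjusted p = 5.1e-05), from 64.4, 68.0 and 66.0 CPM to 77.8, 81.0 and 79.0 CPM, with no overlap. In knockdown cells its change was 0.04 (SE 0.04, adjusted p = 0.43), and with library totals alone 0.11 (adjusted p = 0.036). LIF fell in control cells by 0.40 (log2 -0.40, SE 0.13, adjusted p = 0.031), a call lost without control DMSO replicate 2 or 3 or without any of the 3 control temozolomide libraries (-0.32 to -0.43, adjusted p = 0.050 to 0.13), and was near 0 on log2(FPKM + 1), at -0.05 (limma, adjusted p = 0.91). In knockdown cells LIF had a similar value that just missed the threshold, -0.34 (SE 0.12, adjusted p = 0.051), and was called in 8 of 24 alternatives. BIRC3 in knockdown cells was also close to it, at -0.26 (SE 0.10, adjusted p = 0.056).

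In knockdown cells CSF1 fell by 0.37 (log2 -0.37, SE 0.10, adjusted p = 0.012), TNIP1 by 0.16 (log2 -0.16, SE 0.05, adjusted p = 0.019) and CXCL10 by 1.10 (log2 -1.10, SE 0.37, adjusted p = 0.037). Each of these calls was lost without some single library. For CSF1 it was knockdown DMSO replicate 1 or knockdown temozolomide replicate 3 (-0.32 and -0.30, adjusted p = 0.062 and 0.057). For TNIP1 it was knockdown DMSO replicate 2 or knockdown temozolomide replicate 3 (-0.14 and -0.12, adjusted p = 0.079 and 0.096). For CXCL10 it was knockdown DMSO replicate 1 or 2 or any of the 3 knockdown temozolomide libraries (-0.92 to -1.15, adjusted p = 0.075 to 0.16).

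Whether the response to temozolomide differed between knockdown and control cells was tested as the difference of the 2 log2 changes, which is also the difference between the 2 knockdown effects. Of the 41 members 0 were called higher and 1 was called lower, and over all tested genes 0.437% were higher and 0.616% lower. At an unadjusted p below 0.05 edgeR had 2 members higher and 3 lower. DESeq2, which gave an adjusted p for 6 of the 34 tested members here, called 0 higher and 2 lower. The called member was SOD2, at -0.31 (SE 0.05, adjusted p = 0.011). Temozolomide raised SOD2 in control cells by 0.15 (SE 0.04, adjusted p = 0.0075), from a mean of 134 to 149 CPM, and lowered it in knockdown cells by 0.16 (log2 -0.16, SE 0.04, adjusted p = 0.0042), from 219 to 196 CPM. The rise in control cells was 0.12 (adjusted p = 0.052) without control temozolomide replicate 3 and 0.09 (adjusted p = 0.073) with the GC correction, and the fall in knockdown cells was -0.10 (adjusted p = 0.057) with library totals alone. On FPKM values, whose SOD2 means were 70.1 and 108 under DMSO and 72.4 and 104 with temozolomide (control cells before knockdown cells), the difference was -0.09 (limma on log2(FPKM + 1), adjusted p = 0.72). BIRC2 had a difference of -0.22 (SE 0.05, adjusted p = 0.053), and was called without control DMSO replicate 2 (-0.25, adjusted p = 0.032) or control temozolomide replicate 1 (-0.23, adjusted p = 0.039). It was called in 7 of 23 alternatives, over which the difference ran from -0.25 to -0.10 and the adjusted p (edgeR, DESeq2 or limma) from 0.028 to 0.57. On log2(FPKM + 1) BIRC2 was called higher with temozolomide in knockdown cells too (limma, 0.21, adjusted p = 0.017). Of members called for temozolomide in only 1 kind of cell, LIF, TNIP1, CXCL10 and CSF1 had differences of 0.05, -0.04, -0.81 and -0.20, none of them called (adjusted p = 0.54 to 0.91), and NFKBIZ and CXCL11, called for knockdown under DMSO only, had -0.55 (SE 0.26, adjusted p = 0.27) and -1.97 (SE 1.01, adjusted p = 0.32).

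The genes that carry signals to NF-kB were read as a list of 34 receptors, adaptors, kinases and ubiquitin ligases, of which 31 were tested. With knockdown 13 of the 34 were higher and 4 lower under DMSO, and 16 higher and 2 lower under temozolomide, shares that stand beside about 1 in 5 of all tested genes in each direction. TNFRSF12A, the receptor for the cytokine TWEAK and a known activator of the noncanonical branch, was at 39.3, 37.9 and 40.7 CPM in control DMSO and 92.7, 84.4 and 81.7 CPM in knockdown DMSO. Under the drug it was at 39.9, 36.7 and 33.4 CPM and 107, 81.2 and 90.1 CPM. Its log2 fold changes were 1.13 (SE 0.08, adjusted p = 6.7e-10) and 1.33 (SE 0.08, adjusted p = 3.6e-11). MAP3K14, the kinase of that branch, rose by 0.57 (SE 0.07, adjusted p = 6.1e-07) and 0.79 (SE 0.07, adjusted p = 5.2e-09), from 27.0 to 28.6 CPM up to 39.5 to 42.7 CPM under DMSO. TLR3 and TLR4, receptors for double-stranded RNA and for bacterial lipopolysaccharide, rose by 0.86 and 0.65 under DMSO and by 0.47 and 0.66 under temozolomide.

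IL1RAP, the coreceptor that interleukin 1 needs for signalling, fell most on this list. It was at 141, 142 and 141 CPM in control DMSO and 55.6, 55.4 and 58.5 CPM in knockdown DMSO (log2 -1.32, SE 0.04, adjusted p = 7.4e-16), and the change was -1.50 (SE 0.04, adjusted p = 1.9e-16) under temozolomide. IRAK4, a kinase on the same route, fell by 0.33 (adjusted p = 0.0011) and 0.56 (adjusted p = 2.1e-06), while IL1A, a ligand of the receptor, rose as described. SHARPIN and RNF31, subunits of the linear ubiquitin ligase, fell under DMSO by 0.32 and 0.21. TAB2, an adaptor of the kinase TAK1, rose by 0.30 and 0.32, and IRAK2, also a kinase-like protein of this route, rose by 0.62 under temozolomide. IRAK2 was higher under DMSO too, at an unadjusted p below 0.05 (edgeR). With temozolomide 11.7% of all tested genes were higher and 15.8% lower in control cells, and 9.05% and 13.2% in knockdown cells. Of the 34 on this list 3 were higher and 8 lower in control cells, and 2 were higher and 3 lower in knockdown cells. IL1RAP and the receptor IL1R1 were among the lower ones in both, at -0.21 and -0.40 in control cells and at -0.39 and -0.31 in knockdown cells. For the difference between the responses edgeR called 0 of the 34, with 5 higher and 3 lower at an unadjusted p below 0.05.

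Receptors for the cytokines themselves were mostly silent, and 6 of 17 passed the filter. Under DMSO 4 were higher and 0 lower with knockdown, and under temozolomide 2 were higher and 0 lower. The higher ones were 23.5% and 11.8% of the 17, beside 21.1% and 22.0% of all tested genes. Over all tested genes 21.4% and 20.3% were lower. IL6R was at 8.62 to 9.80 CPM in control DMSO and 14.8 to 17.0 CPM in knockdown DMSO, with log2 fold changes of 0.79 (SE 0.09, adjusted p = 6.7e-07) and 1.09 (SE 0.09, adjusted p = 5.7e-09). LIFR, the receptor of LIF, rose by 0.65 and 0.59, and IL6ST, the signalling subunit shared by both, by 0.13 under DMSO. CXCR2, a receptor of CXCL8, had 0 to 3 counts per library.

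The last list held interferons and the factors that act below them, since CXCL10 and CXCL11 are also known interferon targets. Of 11 genes 5 were tested, and 4 were higher and 0 lower with knockdown in each treatment. The higher ones were 36.4% of the 11, beside 21.1% of all tested genes under DMSO and 22.0% under temozolomide. Over all tested genes 21.4% and 20.3% were lower. IRF9, a DNA-binding factor of the interferon response, was at 13.0, 14.7 and 10.8 CPM in control DMSO and 28.8, 34.6 and 32.8 CPM in knockdown DMSO (log2 1.33, SE 0.16, adjusted p = 1.0e-06). IRF1, also a transcription factor, rose by 0.76 (SE 0.11, adjusted p = 8.0e-06). Under temozolomide the values of IRF9 and IRF1 were 1.00 and 0.97. IFNB1 had 0 to 3 counts per library, 0 in all 3 control temozolomide libraries. In knockdown cells temozolomide lowered IRF9 by 0.60 on the log2 scale (log2 -0.60, SE 0.15, adjusted p = 0.0062), with 28.3, 14.4 and 21.5 CPM in the treated knockdown libraries, and the difference between the responses was not called for any of these genes (0 at an adjusted p below 0.05 and 2 lower at an unadjusted p below 0.05, edgeR).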

How the data were processed

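Poly(A) RNA was sequenced in 12 libraries. The authors deposited 2 tables, with estimated counts (10.7% to 12.0% of a library's values are fractions) and with FPKM values, which adjust for the length of the transcript and the depth of the library. The submitters' processing notes list RSEM, StringTie 1.3.1, HISAT2, Bowtie2 2.2.8 and fastp 0.18.0. Genome build, annotation and use of strand: not given in the sources used here. Gene locations come from GENCODE (GRCh38) by gene ID. Without strand, overlapping antisense reads cannot be told apart.

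Expected counts were rounded and fitted with edgeR 4.0.16 in R 4.3.3: filterByExpr (12821 of 20289 genes), TMM factors, and 1 quasi-likelihood model of 4 group means (8 residual degrees of freedom). Benjamini-Hochberg adjustment ran over all tested genes, with calls at an adjusted p below 0.05. The biological coefficient of variation was 3.90%. CPM are counts per TMM-scaled total, and SE values were derived from the F statistic. Of the listed genes, 583 have no symbol and 3153 have no count in any library. The procedure was tested on simulated counts.

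All 41 members were followed whatever their values. Genes of the other lists were named by the smallest p, up to 3 in each direction per list and comparison; 1 such gene is not reported here. The members and lists were chosen with earlier results of these data known. Replicate numbers were not used as pairs. The model was refitted with DESeq2 1.42.0, relative log expression factors, unscaled library totals, no filter, a filter of 1 CPM in 3 libraries, the compared groups alone, a replicate block, each library left out, an offset for GC content and an adjusted p below 0.01. The deposited FPKM were fitted by limma 3.58.1 as log2(FPKM + 1) and log2(FPKM + 0.1).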

Additional observations from a re-analysis of the deposited data

Results flagged for a closer look

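The response of SOD2 to temozolomide differed between knockdown and control cells by -0.31 on the log2 scale in the test of the difference itself (edgeR quasi-likelihood, SE 0.05, adjusted p = 0.011). In each of the 3 control temozolomide libraries SOD2 was above each control DMSO library, and in each of the 3 knockdown temozolomide libraries it was below each knockdown DMSO library. On FPKM values the difference was not called, at -0.09 (limma on log2(FPKM + 1), adjusted p = 0.72). With the GC offset the rise of SOD2 in control cells alone was 0.09 (adjusted p = 0.073) in place of 0.15. The cause of the disagreement between the tables was not tested.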

How the results depend on the processing

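Over all comparisons and alternatives 3980 values of single members were recomputed: 3648 stayed on the same side of the threshold with the same sign, 126 lost a call, 52 gained 1, none of the called values reversed and 154 uncalled values changed sign. Members higher with knockdown numbered 18 to 25 under DMSO and 16 to 22 under temozolomide. The 2 lower under DMSO became 1 with the GC offset, and the 1 lower under temozolomide became 2 with the GC offset and 1 to 2 with a library left out. For temozolomide in control cells the 2 higher members became 1 with the GC offset and in all 3 FPKM fits, and 1 to 2 with a library left out. In knockdown cells the 0 higher became 2 with library totals alone (BCL3 and BIRC2) and 1 (BIRC2) in the FPKM fits, and the 9 lower became 5 with log2(FPKM + 0.1) and 5 at an adjusted p below 0.01. For the difference the 1 lower member became 2, with BIRC2 added, with relative log expression factors, library totals alone, no filter, the replicate block and DESeq2, 0 in the FPKM fits and at an adjusted p below 0.01, and 1 to 2 with a library left out.

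Scaling by library totals alone moved the split of all tested genes to 3387 higher and 2167 lower (knockdown under DMSO), 3457 and 2126 (knockdown under temozolomide), 2870 and 1295 (temozolomide in control cells) and 2533 and 1078 (in knockdown cells). The log2(FPKM + 1) fit gave 1738 higher and 924 lower for temozolomide in control cells, beside 1505 and 2024 in the count model, and 1355 and 693 in knockdown cells, beside 1160 and 1694. For the difference the 56 higher and 79 lower of all genes became 187 and 359 without a filter, 130 and 243 with DESeq2, 103 and 119 with the replicate block, 11 and 24 with the GC offset, and 0 and 0 with log2(FPKM + 0.1), and leaving out a library gave from 5 and 17 (without control DMSO replicate 1) to 210 and 185 (without control temozolomide replicate 1). For the difference, 17113 genes were tested without a filter, DESeq2 gave an adjusted p for 4629, and the main model tested 12821. The causes of these shifts were not tested. Over 18 pairs of same-numbered libraries the correlation was -0.077 to 0.14, so the numbers were not read as pairs. For 6 of 12 libraries the mean correlation with libraries of the other groups was highest, among the 3 numbers, for the library's own number. With the replicate block members higher and lower were 22 and 2, 21 and 1, 2 and 7, 0 and 11, and 0 and 2. Depth limits CXCL1, CXCL2, CCL5, CCL20, IL11, IL1B and TNF, whose changes were not testable here.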

Other observations

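Library 1 of knockdown temozolomide held the highest value of its group in 22 of the 34 tested members and the lowest in 3, beside 34.2% and 35.0% of all tested genes. In the other 11 libraries the highest value of the group fell in 6 to 13 members. Lowest values were also uneven elsewhere. They fell in 19 members in knockdown DMSO replicate 3, 18 in knockdown temozolomide replicate 3 and 16 in control DMSO replicate 2. The shares of all tested genes there were 32.6%, 35% and 34.9%. RELB, for example, was at 12.2 CPM in library 1 of knockdown temozolomide and at 9.46 and 9.33 CPM in the other 2 of its group. ICAM1 was at 3.23 against 1.72 and 1.94 CPM. Without that library the temozolomide comparison in knockdown cells had 11 members lower in place of 9. That number was also 11 without control DMSO replicate 2 or 3, with relative log expression factors and with the replicate block. CD44 was at 320 CPM in library 1 of knockdown temozolomide, below the 326 and 333 CPM of the others in that group. This pattern was noticed after the values were seen, and its cause was not tested.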
